A study of Mus musculus with 8 samples.

Results

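Mitochondrial ribosomal protein genes were followed in the infarcted and the sham-operated mouse heart. They were taken as every gene symbol made of Mrpl or Mrps and a number, which gave 77 of the 24062 genes in the count tables, 48 with a large-subunit (Mrpl) and 29 with a small-subunit (Mrps) symbol. All 77 passed the filter on low counts and were among the 15508 genes tested. Total RNA came from the left ventricular free wall of male C57BL/6 mice aged 8-12 weeks, with no genetic change named in the labels. Hearts were collected 1 day after myocardial infarction (MI) by ligation of the left anterior descending coronary artery, 1 day after sham surgery, 3 days after MI and 3 days after sham surgery, with 2 biological replicates in each of the 4 groups. Within each group, the pair of libraries is named A and B from column order, because no column carries a replicate number. Both sham count columns of 1 day carry one and the same header, so they cannot be told apart by name; they hold different counts for 19436 of the 24062 genes and were used as 2 libraries.

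The mitochondrial ribosome (mitoribosome) translates the few messenger RNAs encoded by mitochondrial DNA, all of which specify subunits of the respiratory chain and the ATP synthase. Its RNAs are transcribed in the organelle, but every one of its proteins is encoded in the nucleus, made in the cytosol and imported. Some of these proteins descend from bacterial ribosomal proteins and others were gained by mitochondria. Heart muscle is rich in mitochondria, and inherited defects of several of these proteins cause cardiomyopathy in humans.

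The total count over genes was 12662237 and 7382490 in the MI libraries and 20676514 and 20120257 in the sham libraries of 1 day, and 21055785 and 25041386 in the MI libraries and 18831791 and 19845961 in the sham libraries of 3 days. Levels are given as CPM, which are counts relative to library size, scaled by the trimmed mean of M values (TMM). Changes are log2 fold changes of MI over sham with the standard error (SE) of 1 fit to all 8 libraries. A gene is called where the edgeR quasi-likelihood test gave a Benjamini-Hochberg adjusted p under 0.05 over all genes tested. Libraries B of 1 day stood apart in reads of 1491 chemosensory (olfactory, vomeronasal and taste) receptor genes. MI library B had reads in 92.2% of these genes and sham library B in 50.7%. MI library A of that day had reads in 23.7%, and the 5 others in 4.43 to 8.32%. The counts are therefore also given without the B libraries of 1 day. The labels name no batch, so a batch that coincided with surgery cannot be told apart from it. Markers of heart muscle were high in the sham libraries, where the 12 cardiomyocyte genes listed summed to 120431 to 195656 CPM. These genes mark heart muscle and were not used to tell the left ventricle from other chambers.

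At 1 day the question was how early after the injury these genes had changed, and most had fallen. By the edgeR test 64 of the 77 genes were lower after MI and 0 were higher, against 19.7% lower and 19.3% higher among all genes tested. The median log2 fold change of the 77 genes was -1.02, and that of all genes tested was 0.12. Their summed level was 2808 and 2358 CPM after MI and 5350 and 5302 CPM after sham surgery. Both MI libraries lay below both sham libraries for 71 of the 77 genes and above them for 0, against 32.6% below and 34.7% above among all genes tested. At an unadjusted p under 0.05 the count of higher genes was also 0, against 25.1% of all genes tested, and it was 0 with DESeq2 and with limma-voom. Without MI library B, 1 gene, Mrpl52, was called higher, and without both B libraries of 1 day 53 genes were called lower. In bulk tissue, fewer cells of a type and less of an RNA in each cell cannot be told apart.

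Mrpl34, a large-subunit protein with a bacterial counterpart (chr8:71464926-71465753, plus strand, RefSeq GRCm38.p6), had the most negative change at 1 day. Its level was 23.0 and 15.5 CPM in the MI libraries, against 100 and 92.4 CPM in the sham libraries. Both MI libraries were far below both sham libraries. The log2 fold change was -2.31 (SE 0.21, edgeR adjusted p = 0.000155), a 4.94-fold lower level. Mrpl12, which forms the stalk that recruits translation factors and also binds the mitochondrial RNA polymerase, had 94.8 and 47.0 CPM after MI and 210.0 and 213 CPM after sham surgery. Its groups did not overlap, although the MI libraries were unlike each other, and its log2 fold change was -1.56 (SE 0.27, edgeR adjusted p = 0.00221). Mrps35, a small-subunit protein that mitochondria gained, had 43.8 and 23.0 CPM after MI and 99.8 and 104 CPM after sham surgery, with a change of -1.59 on the log2 scale (SE 0.27, edgeR adjusted p = 0.00183). Mrpl14 changed by -1.61, Mrpl45 by -1.49 and Mrpl44 by -1.46 on the log2 scale, each with both MI libraries below both sham libraries. Mrpl45 lies at the exit of the peptide tunnel on the inner membrane side, and defects of MRPL44 cause a cardiomyopathy of infancy in humans.

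The fall at 1 day ran through both subunits and both origins. Of the small-subunit proteins with a bacterial homologue, 12 of 16 were called lower, with a median log2 fold change of -1.0. Of those specific to mitochondria, 9 of 10 were lower, with a median of -1.04. In the large subunit 24 of 30 proteins with a bacterial homologue were lower, with a median of -0.96, and 18 of 20 specific to mitochondria were lower, with a median of -1.22. Mrps12, which sits at the decoding centre, fell by 1.16 (SE 0.19, edgeR adjusted p = 0.00149) on the log2 scale. Mrpl3, near the peptidyl transferase centre, fell by 1.27 (SE 0.19, edgeR adjusted p = 0.00110). Mrps7, a bacterial-type protein of the small-subunit head, changed by -1.01 (SE 0.25, edgeR adjusted p = 0.0114). The call on Mrps7 was lost without sham library A of 1 day (adjusted p = 0.0802) or sham library B (0.0683).

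The most abundant of the 77 genes by CPM were among those that fell. Mrpl42 had 105 and 84.5 CPM after MI and 181 and 201 CPM after sham surgery at 1 day, with a log2 fold change of -1.01 (edgeR adjusted p = 0.00273). Mrpl51 changed by -1.39 and Mrpl18 by -1.36, with edgeR adjusted p = 0.000391 and 0.000386. Mrpl30 changed less, at -0.67 (SE 0.16, edgeR adjusted p = 0.0106), and it was no longer called once sham library A of 1 day was left out (adjusted p = 0.0876). At the other end, 13 genes were called in neither direction. The smallest differences at 1 day were those of Mrpl32 at -0.01 (SE 0.22), Mrps18b at 0.04 (SE 0.21) and Mrpl33 at -0.12 (SE 0.18). Mrpl32 had 27.7 and 36.8 CPM after MI and 34.1 and 30.4 CPM after sham surgery, so its groups overlapped.

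Mrps36 carries a ribosomal symbol but is now known as a subunit of the 2-oxoglutarate dehydrogenase complex of the tricarboxylic acid cycle. It had 5.27 and 3.81 CPM after MI and 9.97 and 8.05 CPM after sham surgery at 1 day, with a log2 fold change of -0.95 (SE 0.31, edgeR adjusted p = 0.0377). That call was lost without MI library B, sham library A or sham library B of 1 day (adjusted p = 0.103, 0.194 and 0.0733) and without either MI library of 3 days (0.0659 without A and 0.0658 without B). At 3 days it had 1.60 and 2.11 CPM after MI and 6.52 and 6.38 CPM after sham surgery. Both MI libraries were below both sham libraries, with a log2 fold change of -1.78 (SE 0.32, edgeR adjusted p = 0.000984).

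At 3 days the question was whether the early fall lasted, and the 77 genes had split. By the edgeR test 44 were lower after MI and 8 were higher, against 23.7% lower and 31.7% higher among all genes tested, and the 25 others were not called. The median log2 fold change was -0.65, against 0.16 over all genes tested, and the range ran from -2.01 to 1.35. The summed level was 2832 and 2760 CPM after MI and 4416 and 4238 CPM after sham surgery. Both MI libraries lay below both sham libraries for 56 of the 77 genes and above them for 15, against 35.1% below and 45.9% above among all genes tested. The number of higher genes depended on single libraries: it was 2 without MI library A of 3 days, 3 without MI library B or sham library B of 3 days, 4 without MI library A of 1 day and 5 without either sham library of 1 day. Without both B libraries of 1 day 46 genes were lower and 9 higher, and with library size as the only scaling 34 were lower and 13 higher.

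**Figure D1:**
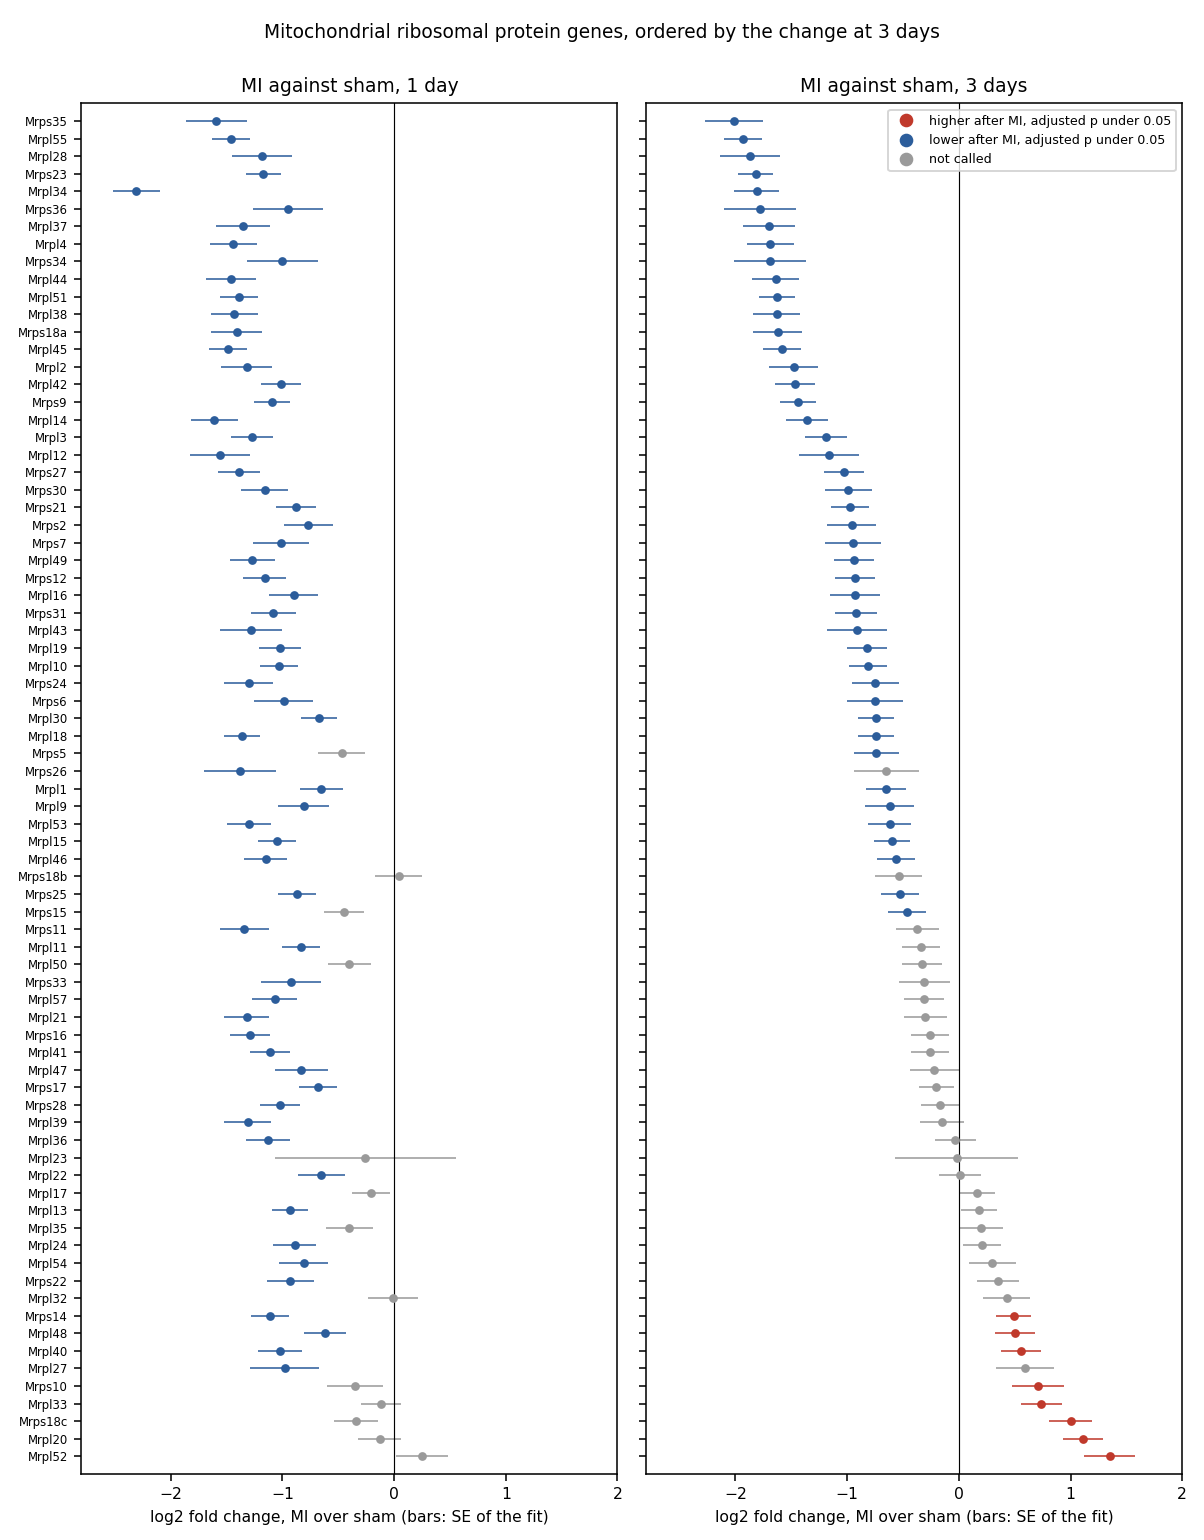
Log2 fold change of MI over sham (horizontal axis, with the SE of the fit as bars) for each of the 77 genes at 1 day (left) and 3 days (right), ordered from the most negative to the most positive change at 3 days. At 1 day 64 genes are called lower and 0 higher, and at 3 days 44 are called lower and 8 higher.

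The genes with the most negative changes at 3 days came from both subunits. Mrps35 had 22.1 and 20.2 CPM after MI and 92.5 and 77.7 CPM after sham surgery. The groups were far apart, with a log2 fold change of -2.01 (SE 0.26, edgeR adjusted p = 0.000150), or 4.03-fold lower. Mrpl55, a large-subunit protein, had 20.2 and 21.9 CPM after MI and 76.9 and 83.5 CPM in sham hearts, a log2 fold change of -1.93 (SE 0.17, edgeR adjusted p = 1.47e-05). Mrps23, a small-subunit protein specific to mitochondria, had 32.5 and 31.5 CPM after MI and 116 and 111 CPM in the sham libraries, a log2 fold change of -1.82 (SE 0.16, edgeR adjusted p = 1.43e-05). In both genes the replicates of a group lay close together. Mrpl28 changed by -1.87 (SE 0.27, edgeR adjusted p = 0.000283) and Mrpl34 by -1.81 (SE 0.20, edgeR adjusted p = 5.37e-05). Mrpl34 had 19.6 and 21.7 CPM after MI and 72.5 and 71.9 CPM after sham surgery at 3 days, so that its MI libraries of both days lay in one low range.

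Of the other proteins with known roles, Mrpl12 fell by 1.16, Mrpl3 by 1.19, Mrps12 by 0.93, Mrpl44 by 1.64 and Mrpl45 by 1.58 on the log2 scale at 3 days, with edgeR adjusted p from 4.09e-05 to 0.00448. Mrps7 changed by -0.95 (SE 0.25, edgeR adjusted p = 0.00864), which missed the threshold once sham library B of 3 days was left out (adjusted p = 0.0659). Mrpl42 fell by 1.47, Mrpl51 by 1.63, Mrpl30 by 0.74 and Mrpl18 by 0.74. The smallest differences were those of Mrpl22 at 0.01 (SE 0.19), Mrpl23 at -0.02 (SE 0.55) and Mrpl36 at -0.03 (SE 0.18). Mrpl22 had 18.0 and 17.2 CPM after MI and 18.2 and 16.8 CPM after sham surgery. Mrpl23 was thinly counted, at 0.243 to 1.60 CPM in the 8 libraries, and its value is uncertain.

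The 8 genes called higher at 3 days were Mrpl52, Mrpl20, Mrps18c, Mrpl33, Mrps10, Mrpl40, Mrpl48 and Mrps14. Mrpl52, a large-subunit protein specific to mitochondria, had 85.8 and 69.8 CPM after MI and 31.1 and 29.8 CPM after sham surgery. Every MI library of 3 days was more than double every sham library of that day, and the log2 fold change was 1.35 (SE 0.23, edgeR adjusted p = 0.000726). Mrpl20, whose bacterial counterpart is needed for early assembly of the large subunit in Escherichia coli, had 87.2 and 80.3 CPM after MI and 40.8 and 36.7 CPM after sham surgery. The groups were again well apart, with a log2 fold change of 1.11 (SE 0.18, edgeR adjusted p = 0.000545). Mrpl33 had 121 and 99.7 CPM after MI and 70.2 and 62.5 CPM after sham surgery, with a change of 0.74 on the log2 scale (SE 0.18, edgeR adjusted p = 0.00606). The call on Mrpl33 was lost without MI library A (adjusted p = 0.293), MI library B (0.0724) or sham library B (0.0637) of 3 days.

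The other 4 of these genes passed the test by less. Mrps10 had 17.0 and 17.0 CPM after MI and 11.5 and 9.30 CPM after sham surgery at 3 days, with a log2 fold change of 0.71 (edgeR adjusted p = 0.0241). Mrpl40, whose human counterpart lies in the region lost in DiGeorge syndrome, had 38.6 and 38.4 CPM after MI and 28.8 and 23.3 CPM in sham hearts, a log2 fold change of 0.56 (edgeR adjusted p = 0.0244). Mrps14, a small-subunit protein with a bacterial counterpart whose defects cause cardiomyopathy in humans, had 85.1 and 75.0 CPM after MI and 59.1 and 54.8 CPM in the sham libraries, a log2 fold change of 0.49 (edgeR adjusted p = 0.0283). Mrpl48 had 35.8 and 34.5 CPM after MI and 25.9 and 23.9 CPM after sham surgery, with a change of 0.50 on the log2 scale (edgeR adjusted p = 0.0376). All 4 had MI libraries above both sham libraries. Their calls were lost without MI library A (adjusted p = 0.256 to 0.621), MI library B (0.276 to 0.416) or sham library B (0.143 to 0.162) of 3 days or MI library A of 1 day (0.0667 to 0.138), and with DESeq2's test (0.0869 to 0.148). The calls on Mrpl40, Mrpl48 and Mrps14 were also lost without sham library A of 1 day (0.0525 to 0.0642) or sham library B of 1 day (0.0518 to 0.0633), and those on Mrpl48 and Mrps14 without sham library A of 3 days (0.0809 and 0.0744).

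**Figure D2:**
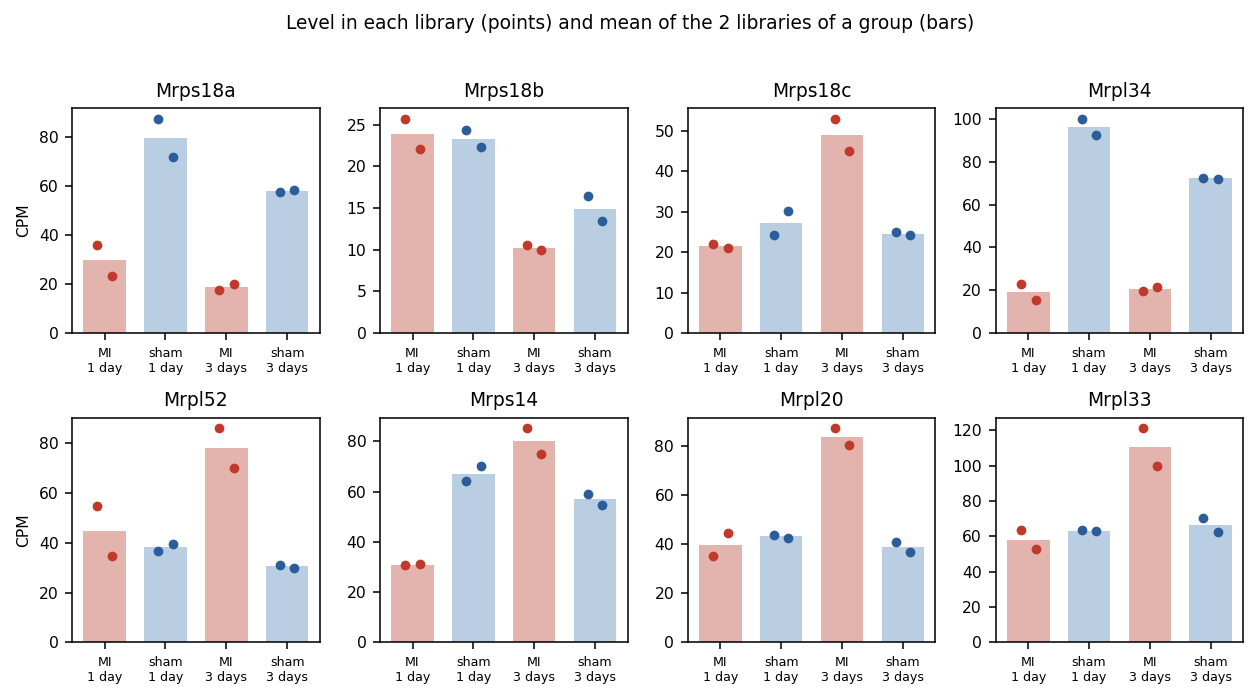
CPM (vertical axis, from 0) of 8 genes in each library (points) and the mean of the 2 libraries of a group (bars), with MI to the left of sham at each day. Mrps18a and Mrpl34 are low in the MI libraries of both days, and Mrps18c, Mrpl52, Mrpl20 and Mrpl33 are highest in the MI libraries of 3 days.

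The infarct effects at the 2 days were then compared with each other by an interaction test. It asks for each gene whether the log2 fold change at 3 days differed from that at 1 day. By the edgeR test the effect was more positive at 3 days for 20 of the 77 genes and more negative for 0, against 13.2% and 11.3% of all genes tested. The median difference was 0.37, against -0.04 over all genes tested. At an unadjusted p under 0.05 the counts were 25 and 1, against 19.4% and 18.3% of all genes tested, and with DESeq2's test they were 19 and 1, the gene with the more negative effect there being Mrps23. The 20 genes were the 8 called higher at 3 days and Mrpl13, Mrpl21, Mrpl24, Mrpl27, Mrpl36, Mrpl39, Mrpl41, Mrpl54, Mrps11, Mrps16, Mrps22 and Mrps28. All 12 of these last genes were called lower at 1 day and not called at 3 days. From 1 to 3 days the median change of the 77 genes was 0.08 after MI and -0.29 after sham surgery. The median difference of 0.37 thus included lower sham levels at 3 days, of which 0 were called.

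Mrps14 had the largest such difference. It had 30.7 and 31.2 CPM after MI and 64.0 and 70.1 CPM after sham surgery at 1 day, with a log2 fold change of -1.11 (SE 0.17, edgeR adjusted p = 0.00131), and lay above its sham level at 3 days. The difference of the effects was 1.60 (SE 0.24, edgeR adjusted p = 0.00173), and the gene lies at chr1:160195215-160201186. Mrpl40 had 15.7 and 15.3 CPM after MI and 31.2 and 32.0 CPM after sham surgery at 1 day, and its difference was 1.59 (SE 0.27, edgeR adjusted p = 0.00322). Both genes thus had MI libraries below sham at 1 day and above sham at 3 days. Mrpl48 was the only other gene called in opposite directions at the 2 days. Its log2 fold change at 1 day was -0.62 (edgeR adjusted p = 0.0278). That call was lost without either sham library of 1 day or either MI library of 3 days. By transcript reads, a second count of the same libraries, Mrpl48 changed by only 0.03 at 3 days (edgeR adjusted p = 0.871). Mrpl40 changed by 0.45 (0.087) and Mrps14 by 0.3 (0.151) there, so that count called none of the 3 genes higher at 3 days.

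Mrps16 and Mrps22, whose human counterparts are linked to combined respiratory chain deficiency, were called lower at 1 day and not called at 3 days. Mrps16 had 22.1 and 22.1 CPM after MI and 53.1 and 54.7 CPM after sham surgery at 1 day, and 41.5 and 42.4 CPM after MI and 53.9 and 46.3 CPM after sham surgery at 3 days. Its log2 fold change was -1.29 at 1 day (edgeR adjusted p = 0.000772) and -0.26 at 3 days (0.218), with a difference of 1.03 (0.0144). Mrps22 changed by -0.93 at 1 day (edgeR adjusted p = 0.00702; 0.0583 without sham library B of 1 day) and by 0.35 at 3 days (0.143), a difference of 1.28 (0.0103). Mrpl27, whose bacterial counterpart reaches the peptidyl transferase centre, differed by 1.57 (SE 0.40, edgeR adjusted p = 0.0203), and Mrpl20 by 1.24 (SE 0.26, edgeR adjusted p = 0.00809). The interaction calls on these 4 genes were lost without MI library A (adjusted p = 0.0801 to 0.127) or MI library B (0.0646 to 0.156) of 3 days. Those on Mrps16, Mrps22 and Mrpl27 were also lost without sham library B of 1 day (0.0582 to 0.105), those on Mrps16 and Mrpl27 without sham library B of 3 days (0.0530 and 0.0713), that on Mrps16 without sham library A of 1 day (0.0567) and that on Mrpl27 without both B libraries of 1 day (0.0658).

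The interaction calls rested on few libraries. Of the 20, 2 were left without MI library A or without MI library B of 3 days, Mrps14 and Mrpl40 in each case, and 5 without sham library B, 9 without sham library A of 1 day and 8 without sham library B of 3 days. Without both B libraries of 1 day 12 were called, all from the 20 named above, and 2 genes, Mrpl28 and Mrps34, had a more negative effect at 3 days. Without MI library B of 1 day 4 genes had a more negative effect at 3 days, Mrpl28, Mrps23, Mrps34 and Mrps35. The genes with the smallest differences were Mrpl1 at 0.01, Mrps15 at -0.01 and Mrpl16 at -0.03. Mrpl1 changed by -0.65 at both days, a call lost at 1 day when either sham library of that day was left out (adjusted p = 0.0535 for A and 0.137 for B) and at 3 days without sham library A of that day (0.0941).

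**Figure D3:**
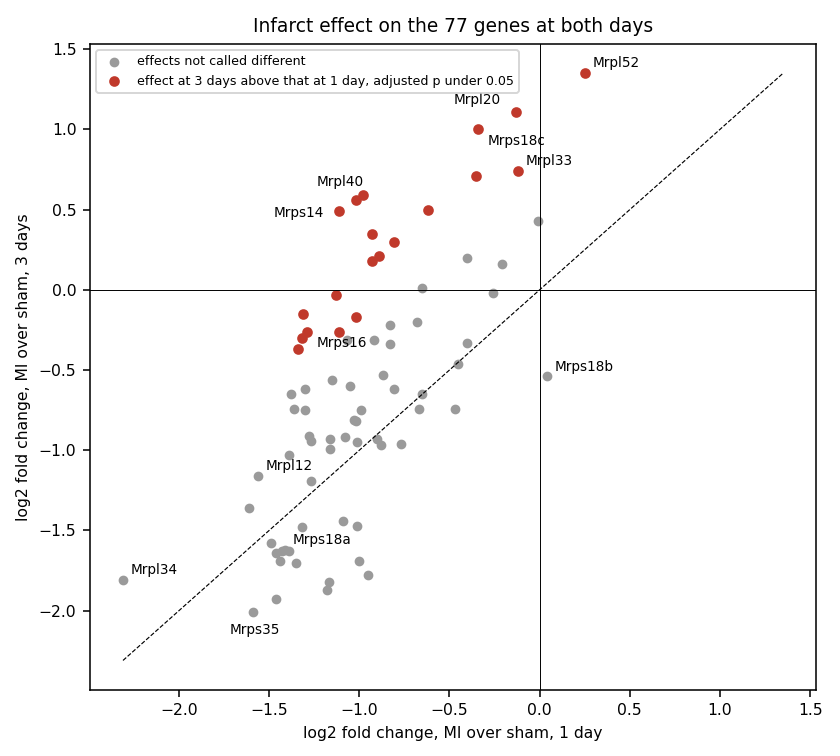
Log2 fold change of MI over sham at 1 day (horizontal axis) and at 3 days (vertical axis) for the 77 genes, each a point, with the line of equal effects dashed. The 20 genes whose effect at 3 days was called above that at 1 day are red, and Mrps14 and Mrpl40 lie below 0 at 1 day and above 0 at 3 days.

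Across the 77 genes the 2 log2 fold changes had a Pearson r of 0.68 and a Spearman rho of 0.66, given as a description, since genes of the same libraries are not independent. In all, 42 genes were called lower at both days, against 13.3% of all genes tested, 19 lower at 1 day alone, against 4.76%, and 3 lower at 1 day and higher at 3 days, against 1.66%. Another 5 were higher at 3 days alone, against 18.3% of all genes tested, and 2, Mrps5 and Mrps15, lower at 3 days alone, against 9.92%. The other 6, called at neither day, against 32.8%, were Mrpl17, Mrpl23, Mrpl32, Mrpl35, Mrpl50 and Mrps18b. Of the 64 calls at 1 day, 43 held under every alternative tried, as did 32 of the 44 lower calls and 2 of the 8 higher calls at 3 days. Those 2 higher calls were Mrpl52 and Mrpl20.

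The 3 paralogues related to bacterial ribosomal protein S18, grouped after their values were seen, differed in their calls. Mrps18c is the member of the small subunit that stands in the place of bacterial S18, Mrps18b is another small-subunit protein, and Mrps18a is part of the large subunit despite its symbol. Mrps18a had 35.8 and 23.4 CPM after MI and 87.3 and 71.7 CPM after sham surgery at 1 day, and 17.5 and 20.1 CPM after MI and 57.5 and 58.4 CPM after sham surgery at 3 days. It was low after MI on both days, with log2 fold changes of -1.41 (SE 0.23, edgeR adjusted p = 0.00151) at 1 day and -1.62 (SE 0.22, edgeR adjusted p = 0.000207) at 3 days. Mrps18c had 22.0 and 20.9 CPM after MI and 24.2 and 30.1 CPM after sham surgery at 1 day, and 52.9 and 45.1 CPM after MI and 24.9 and 24.2 CPM after sham surgery at 3 days. Its log2 fold change was -0.34 (SE 0.20, edgeR adjusted p = 0.211) at 1 day and 1.00 (SE 0.19, edgeR adjusted p = 0.00147) at 3 days, a 2-fold higher level that stood out in both MI libraries of 3 days.

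Mrps18b had 25.7 and 22.1 CPM after MI and 24.4 and 22.3 CPM after sham surgery at 1 day, so that its groups overlapped. At 3 days it had 10.6 and 9.91 CPM after MI and 16.5 and 13.4 CPM in sham hearts, a log2 fold change of -0.54 (SE 0.21, edgeR adjusted p = 0.0512). The interaction test called Mrps18c, with a difference of 1.34 (SE 0.28, edgeR adjusted p = 0.00795), and neither Mrps18a at -0.21 (adjusted p = 0.661) nor Mrps18b at -0.59 (0.179). The call on Mrps18c at 3 days was lost without MI library A of 3 days (adjusted p = 0.0719), and its interaction call without sham library B of 1 day (0.0556) or either MI library of 3 days (0.0939 without A and 0.0564 without B). Levels can be compared between genes only per transcript length: in the 4 sham libraries the RPKM (transcript reads divided by transcript length and by the library's reads) averaged 55.1 for Mrps18a, 28.7 for Mrps18b and 42.1 for Mrps18c. Differences between the paralogues' changes were not tested against each other.

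The promoter windows of the 3 paralogues are shown beside those of Mrpl34 and Mrpl52, the most negative change at 1 day and the most positive change at 3 days, because their calls differed. Each window runs from 250 bases before to 50 bases after the annotated start site, read 5′ to 3′ on the strand of the gene, with RefSeq positions in GRCm38.p6. Capitals mark matches on either strand to 3 motifs of factors known to act on nuclear genes of mitochondria: GCATGCG for NRF1, CCGGAAG for ETS factors such as GABP, and AAGATGG for YY1.
Mrps18a, chr17:46110754-46111053, plus strand: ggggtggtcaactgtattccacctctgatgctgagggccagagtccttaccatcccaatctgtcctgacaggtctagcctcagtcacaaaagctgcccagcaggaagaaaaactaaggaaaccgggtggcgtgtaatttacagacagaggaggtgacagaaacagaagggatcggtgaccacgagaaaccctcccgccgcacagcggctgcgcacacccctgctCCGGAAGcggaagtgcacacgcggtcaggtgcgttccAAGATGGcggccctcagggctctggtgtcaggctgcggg
Mrps18b, chr17:35916391-35916690, minus strand: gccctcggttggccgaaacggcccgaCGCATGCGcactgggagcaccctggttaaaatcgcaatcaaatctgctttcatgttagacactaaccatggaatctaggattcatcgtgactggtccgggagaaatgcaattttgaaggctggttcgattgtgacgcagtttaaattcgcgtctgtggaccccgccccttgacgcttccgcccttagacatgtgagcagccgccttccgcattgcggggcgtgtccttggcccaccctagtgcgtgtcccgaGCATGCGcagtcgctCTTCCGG
Mrps18c, chr5:100798509-100798808, plus strand: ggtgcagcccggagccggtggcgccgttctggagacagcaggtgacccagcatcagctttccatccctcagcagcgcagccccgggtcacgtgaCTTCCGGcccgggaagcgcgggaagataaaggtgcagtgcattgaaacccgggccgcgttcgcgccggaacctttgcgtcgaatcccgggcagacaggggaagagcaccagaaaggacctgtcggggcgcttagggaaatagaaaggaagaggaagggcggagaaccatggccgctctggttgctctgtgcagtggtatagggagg
Mrpl34, chr8:71464676-71464975, plus strand: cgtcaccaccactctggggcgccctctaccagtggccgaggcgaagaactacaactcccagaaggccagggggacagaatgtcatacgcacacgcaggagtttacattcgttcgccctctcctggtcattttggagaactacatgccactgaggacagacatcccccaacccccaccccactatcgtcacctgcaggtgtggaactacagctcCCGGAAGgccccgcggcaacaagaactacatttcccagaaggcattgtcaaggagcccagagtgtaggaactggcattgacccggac
Mrpl52, chr14:54426659-54426958, plus strand: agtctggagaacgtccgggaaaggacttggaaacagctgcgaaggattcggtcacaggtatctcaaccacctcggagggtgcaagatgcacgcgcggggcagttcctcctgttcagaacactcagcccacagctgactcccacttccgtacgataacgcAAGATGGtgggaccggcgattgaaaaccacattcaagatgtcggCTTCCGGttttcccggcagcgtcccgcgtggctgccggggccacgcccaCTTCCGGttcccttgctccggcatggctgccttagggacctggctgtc
The Mrps18a window held an ETS match that began 26 bases before the start site and a YY1 match that began 12 bases after it. The Mrps18b window held 3 NRF1 matches, of which 2 overlap on opposite strands, and an ETS match. The Mrps18c and Mrpl34 windows held 1 ETS match each, and the Mrpl52 window held 2 ETS matches and 1 YY1 match. Genes that rose and genes that fell thus both carried ETS matches.

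Of the 77 genes, 68 had a window in the RefSeq table. An ETS match was present in 25 of the 68 (36.8%), against 9.93% of the 27025 genes with a window. A YY1 match was present in 13 (19.1%), against 7.28% of all genes, and an NRF1 match in 8 (11.8%), against 4.01%. At least 1 of the 3 motifs was found in 37 genes (54.4%), against 19.3% of all. The 27025 genes include genes that did not pass the filter on low counts, whereas all 77 passed it. The part of this in the motif shares was not tested. The windows of the 68 genes also had a higher median number of CG dinucleotides, 21 against 8 in all genes, and 58.2% against 53.3% of G and C, and the part of base composition in the motif shares was not tested. The E-box CACGTG was in 5 windows (7.35%), against 8.09% of all, and TATAAA in 5 (7.35%), against 15.7%. Among the 8 genes called higher at 3 days 4 windows held an ETS match, 1 an NRF1 match and 1 a YY1 match, and among 38 called lower 11, 2 and 8 did. A match is a description of the letters in this window and no evidence of binding.

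The genes for the factors that read these motifs were looked at within a list of regulators. The list of 15 regulators of mitochondrial and ribosomal gene transcription had 6 lower and 7 higher genes at 1 day and 6 lower and 6 higher genes at 3 days by the edgeR test. Among all genes tested 19.7% were lower and 19.3% higher at 1 day, and 23.7% lower and 31.7% higher at 3 days. Nrf1 had 35.6 and 37.1 CPM after MI and 19.8 and 23.4 CPM after sham surgery at 3 days, with log2 fold changes of 0.69 at 1 day (edgeR adjusted p = 0.0320) and 0.75 at 3 days (0.0130). Gabpa changed by 0.13 and -0.11 and Yy1 by -0.08 and 0.14 at 1 and 3 days, none of them called. Ppargc1a, a coactivator of mitochondrial biogenesis, had 11.4 and 19.9 CPM after MI and 195 and 435 CPM after sham surgery at 3 days, with a log2 fold change of -4.32 (SE 0.45, edgeR adjusted p = 3.39e-05). Perm1, a muscle regulator of the same programme, changed by -2.28 at 1 day and -4.98 at 3 days, and Esrrb, an orphan nuclear receptor, by -5.15 at 3 days. Esrra, a related receptor, changed by -2.26 at 1 day. Myc, a driver of growth and of ribosome synthesis, had 61.4 and 24.7 CPM after MI and 2.2 and 3.74 CPM after sham surgery at 1 day, with a log2 fold change of 3.88 (SE 0.52, edgeR adjusted p = 0.000677). The 7 higher genes of 1 day became 4 without sham library A of 1 day or either MI library of 3 days, and the 6 of 3 days became 1 without either MI library of that day and 2 without sham library A.

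Most genes in 3 other lists of mitochondrial translation, for proteins under other symbols, assembly and translation factors, were lower as well. Among all genes tested 19.7% were lower and 19.3% higher at 1 day, and 23.7% lower and 31.7% higher at 3 days. Of 6 mitoribosomal proteins under other symbols all 6 were lower at 1 day and 4 at 3 days, with medians of -0.81 and -0.71. Among them Gadd45gip1 fell by 1.36 and 1.13 at 1 and 3 days, the GTP-binding protein Dap3 by 0.83 and 0.79, the release factor relative Ict1 by 1.07 at 1 day and Ptcd3 by 1.13 at 3 days. The count at 1 day was 3 without sham library B. Of 28 genes for mitoribosome assembly and rRNA modification 16 were lower at 1 day and 17 at 3 days, and 0 were higher at either day, also at an unadjusted p under 0.05. The count at 1 day was 10 without sham library A. The assembly factor Mettl17 had 4.22 and 3.57 CPM after MI and 23.8 and 19.6 CPM after sham surgery at 1 day, with a log2 fold change of -2.46 (SE 0.27, edgeR adjusted p = 0.000259). Tfb1m, which methylates the small-subunit rRNA, changed by -2.39 and the large-subunit rRNA methyltransferase Mrm1 by -1.79 at 1 day, and Rnmtl1 by -1.97, Nsun4 by -1.75 and the GTPase Mtg2 by -1.63 at 3 days.

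Of the 16 mitochondrial translation factors 13 were lower at 1 day and 12 at 3 days, with medians of -1.02 and -1.56, and 0 were higher at either day, also at an unadjusted p under 0.05. The elongation factor gene Gfm1 had 49.5 and 49.7 CPM after MI and 224 and 232 CPM after sham surgery at 3 days, with a log2 fold change of -2.2 (SE 0.16, edgeR adjusted p = 4.17e-06). Taco1, an activator of the translation of a cytochrome oxidase subunit, changed by -1.84 at 1 day and -2.18 at 3 days, the elongation factor Tufm by -2.17 at 3 days, and the elongation factor Tsfm by -1.50 and the initiation factor Mtif2 by -1.42 at 1 day. Of 22 genes for mitochondrial transcription, RNA handling and DNA maintenance 9 were lower and 1 higher at 1 day, and 13 were lower and 3 higher at 3 days. The other 12 were not called at 1 day, and the medians were -0.57 and -0.73. The shares of all genes tested were 19.7% lower and 19.3% higher at 1 day and 23.7% and 31.7% at 3 days. The mitochondrial RNA polymerase Polrmt changed by -1.60, the replicative helicase Peo1 by -1.40 and the elongation factor Tefm by -1.39 at 1 day, and Lrpprc, which stabilises mitochondrial messenger RNAs, by -2.23, Fastkd1 by -2.11 and Peo1 by -2.10 at 3 days. The single higher call of 1 day was lost without either sham library of 1 day or any library of 3 days, and the 3 of 3 days became 0 without either MI library and 1 without sham library A of that day, and 5 without MI library B of 1 day.

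**Figure D4:**
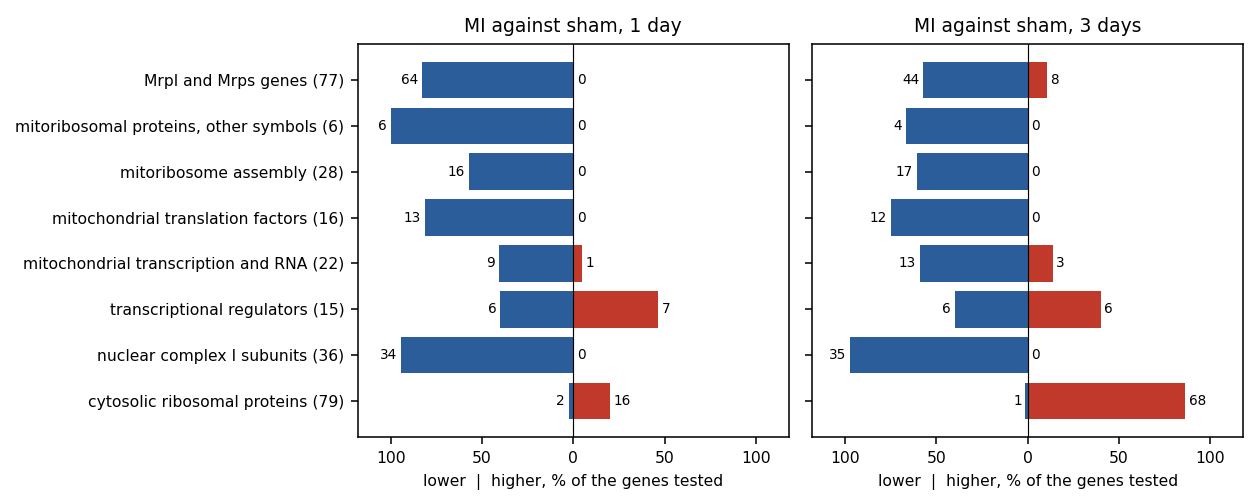
Share of the tested genes of each list called lower (blue, to the left) and higher (red, to the right) after MI at 1 day and 3 days, with the number tested in brackets and the number called beside each bar. The 77 Mrpl and Mrps genes have 64 lower and 0 higher calls at 1 day and 44 lower and 8 higher calls at 3 days.

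Nuclear genes of respiratory complex I, a user of mitoribosome products, and genes of cytosolic ribosomal proteins were set beside the 77 genes. At 1 day 34 of 36 complex I genes were lower, with a median log2 fold change of -0.98, close to the -1.02 of the mitoribosomal genes. At 3 days 35 of 36 were lower, with a median of -1.86, against -0.65 for the mitoribosomal genes. Among all genes tested 19.7% were lower at 1 day and 23.7% at 3 days. Complex I genes summed to 3460 and 3231 CPM after MI and 13443 and 12811 CPM after sham surgery at 3 days. In the interaction test 11.3% of all genes tested had a more negative effect at 3 days and 13.2% a more positive one. Of the 36 complex I genes 18 had a more negative effect at 3 days and 0 a more positive one, also at an unadjusted p under 0.05. That number fell to 9 when sham library A of 1 day was left out and to 7 when sham library B was.

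Cytosolic ribosomal protein genes moved the other way at 3 days. Of 79 tested, 68 were higher and 1 lower at 3 days, against 31.7% and 23.7% of all genes tested. The median log2 fold change at 3 days was 1.62. At 1 day 16 were higher and 2 lower, against 19.3% and 19.7% of all genes tested, so the share higher was near that of all genes. The median at 1 day was 0.18, against 0.12 over all genes tested. The 16 became 6 without either sham library of 1 day and 10 without either MI library of 3 days, and the 2 lower became 12 without MI library A of 1 day. In the interaction test 44 had a more positive effect at 3 days and 1 a more negative one, against 13.2% and 11.3% of all genes tested. The 44 became 19 without MI library A and 23 without MI library B of 3 days, 28 and 21 without sham libraries A and B of 1 day, and 25 without sham library B of 3 days. The summed level of the mitoribosomal genes per summed level of complex I genes was 0.818 and 0.854 after MI and 0.328 and 0.331 after sham surgery at 3 days, and 0.313 and 0.304 after MI and 0.329 and 0.325 after sham surgery at 1 day. Per cytosolic ribosomal genes it was 0.172 and 0.186 after MI and 0.713 and 0.854 after sham surgery at 3 days, and 0.449 and 0.429 after MI and 0.901 and 0.853 after sham surgery at 1 day. The mitoribosomal genes thus lay between the other families at 3 days in these libraries, and the difference between families was not tested.

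**Figure D5:**
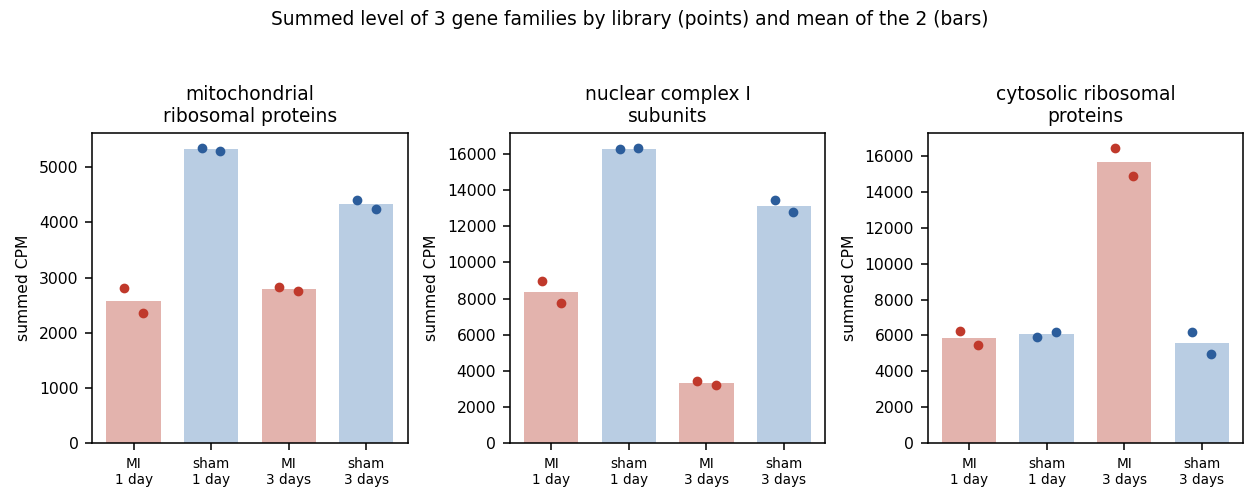
Summed CPM (vertical axes, from 0, on separate scales) of the mitochondrial ribosomal protein genes, nuclear complex I genes and cytosolic ribosomal protein genes in each library (points) and the mean of the 2 libraries of a group (bars), with MI to the left of sham. At 3 days the mitochondrial ribosomal sum is 2832 and 2760 CPM after MI and 4416 and 4238 CPM after sham surgery.

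Reads of the 13 messenger RNAs made in the mitochondrion, which the mitoribosome translates, were held by the transcript tables alone. Reads of these 13 messenger RNAs made up 28.7 and 43.3% of transcript reads after MI and 15.0 and 13.9% after sham surgery at 1 day. At 3 days they made up 6.51 and 4.19% after MI and 16.6 and 15.7% after sham surgery. By the edgeR test all 13 messenger RNAs were higher at 1 day, with a median log2 fold change of 2.32, and all 13 lower at 3 days, with a median of -2.19. Among all genes tested in the transcript reads, 20.1% were higher at 1 day and 28.5% lower at 3 days. The only refits of these reads left out MI library B or both B libraries of 1 day, so dependence on the other libraries was not tested. The highest share, 43.3%, was that of MI library B of 1 day, which stood apart by its receptor gene reads. Without that library all 13 were still called higher at 1 day, with a median of 1.65, and without both B libraries of 1 day 10 were, with a median of 1.71. At 3 days all 13 were called lower under both of these fits.

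Markers of cell types changed as well. All 12 cardiomyocyte markers had a more negative infarct effect at 3 days than at 1 day, with a median difference of -2.75. For the 77 genes the median difference was 0.37, with 20 called more positive and 0 more negative. From 1 to 3 days the median change of the 77 genes was 0.08 after MI and -0.29 after sham surgery. That of the cardiomyocyte markers was -3.32 after MI and -0.42 after sham surgery. At 1 day 11 of 12 cardiomyocyte markers were lower, with sums of 104623 and 115269 CPM after MI and 195656 and 170372 CPM after sham surgery, and 8 of 8 neutrophil markers were higher, with sums of 2168 and 1083 CPM after MI and 203 and 147 CPM after sham surgery. At 3 days 12 of 12 cardiomyocyte markers were lower, with a median log2 fold change of -4.01 and sums of 8831 and 8728 CPM after MI and 120431 and 183338 CPM after sham surgery. The higher lists of 3 days were monocyte and macrophage (10 of 10, 7348 and 7664 CPM after MI and 1791 and 918 CPM after sham surgery), fibroblast (6 of 8, 15021 and 15104 CPM after MI and 4403 and 2161 CPM after sham surgery) and dividing cell (8 of 8, 1534 and 1694 CPM after MI and 101 and 72.6 CPM after sham surgery). Neutrophil markers were higher in 7 of 8, a count of 4 without MI library A or sham library B of 3 days. Of 8 fibroblast markers 3 were lower and 1 higher at 1 day, with sums of 1583 and 1720 CPM after MI and 2316 and 2806 CPM after sham surgery, and the higher call was lost without sham library B. Of 10 monocyte and macrophage markers 4 were higher and 2 lower at 1 day, with sums of 1415 and 1289 CPM after MI and 998 and 1257 CPM after sham surgery, and these counts were 2 and 1 without sham library B. Endothelial markers had 5 higher and 1 lower of 8 at 1 day and 3 higher and 1 lower at 3 days. The 5 became 1 without either sham library and 3 without MI library A of 1 day, and the 3 became 0 without MI library A of 3 days. The lower call of 1 day was lost without either sham library and became 2 without MI library A of that day, and that of 3 days became 3 without MI library A of 1 day. Of 7 lymphocyte markers tested 1 was higher at 1 day and 3 at 3 days, and the 1 became 2 without MI library A and 0 without any other library of 1 day or with one MI library of 3 days left out. Of 8 dividing-cell markers 0 were called at 1 day by edgeR, also at an unadjusted p under 0.05, and 0 by DESeq2 and limma-voom, but 2 were lower without MI library B and 1 higher without MI library A of that day. Every marker of these lists had counts in every library except the lymphocyte genes Cd3e, Cd3g and Klrb1c, each at 0 in 1 library. Lymphocyte sums were 2.68 and 9.23 CPM after MI and 2.03 and 2.36 CPM after sham surgery at 1 day, and 15.8 and 19.0 CPM after MI and 6.04 and 3.45 CPM after sham surgery at 3 days. Endothelial sums were 2366 and 2089 CPM after MI and 1377 and 1381 CPM after sham surgery at 1 day, and 1970 and 1468 CPM after MI and 1683 and 1287 CPM after sham surgery at 3 days. The part of cell composition in the changes of the mitoribosomal genes was not tested.

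Levels at 3 days were also set against those at 1 day within each kind of surgery. After MI 20 of the 77 genes were higher and 15 lower at 3 days than at 1 day by the edgeR test, against 23.4% and 22% of all genes tested, shares close to those of the 77 genes. After sham surgery 0 were called in either direction, as were 0% of all genes tested, while at an unadjusted p under 0.05 16 of the 77 were lower and 0 higher, against 4.07% and 3.74% of all genes tested. The median there was -0.29, against -0.01 over all genes tested. DESeq2 and limma-voom also called 0 there. After MI the highest were Mrpl27, with 21.6 and 24.8 CPM at 3 days and 10.3 and 5.29 CPM at 1 day, a log2 fold change of 1.52 (edgeR adjusted p = 0.00264), and Mrps14 at 1.37. Mrps18b fell by 1.23 on the log2 scale (edgeR adjusted p = 0.00139) and Mrps36 by 1.31 (0.0159). The 15 lower became 23 without MI library B and 6 and 7 without sham libraries A and B of 1 day, 4 and 6 without MI libraries A and B and 8 without either sham library of 3 days, and the 20 higher became 6 and 8 without MI libraries A and B of 3 days.

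Transcript tables of the same groups gave a second count. With their reads summed to genes, the edgeR test called 62 of the 77 genes lower and 0 higher at 1 day, against 19% and 20.1% of the genes tested there. It called 56 lower and 4 higher at 3 days, against 28.5% and 26.3%. The 4 were Mrpl20, Mrpl33, Mrpl52 and Mrps18c. Of the calls in the count tables, 61 lower calls at 1 day and 44 lower calls at 3 days were shared. In the interaction test 8 genes had a more positive effect at 3 days and 4 a more negative one, against 10.2% and 16.6%. The share of the 77 genes with a more positive effect was thus near that of all genes in this second count. The 8 were Mrpl20, Mrpl27, Mrpl33, Mrpl40, Mrps14, Mrps16, Mrps18c and Mrps22, all among the 20 above, and the 4 were Mrpl42, Mrps18b, Mrps23 and Mrps36. Mrps18b was called lower at 3 days there, with a log2 fold change of -0.78 (edgeR adjusted p = 0.00392).

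Some genes were counted very differently by the 2 kinds of table. The median gene had 0.502 transcript-table reads per gene count, but Mrpl23 had 18.8, Mrps36 5.32 and Mrps33 3.64, so their count-table levels are uncertain. In the transcript tables Mrpl23 changed by -1.03 (edgeR adjusted p = 0.00366) at 1 day and -0.74 (0.00933) at 3 days. By RPKM in the 4 sham libraries, which compares genes per length, Mrpl42 was highest at 289.8, then Mrps21 at 209.8, Mrpl30 at 139.6 and Mrpl12 at 114. The median of the 77 genes was 35.3, and the highest was 41.4 times the lowest.

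By the authors' deposited DESeq2 result for 1 day, 53 of the 77 genes were lower and 0 higher after MI, against 14.1% and 11% of the genes with an adjusted p. At 3 days the authors' deposited table, whose sign was read as sham over MI, had 49 lower and 4 higher after MI, against 28.3% and 27.6%. For each day the direction of the deposited fold changes was set from the sign of their correlation with the changes fitted here. Both come from the same libraries, so a shared direction is no separate evidence. The authors' deposited table of 3 days gave Mrpl52 a log2 fold change of -1.17 for sham over MI (adjusted p = 5.13e-07) and Mrpl34 one of 1.97 (adjusted p = 5.05e-21).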

How the data were processed

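RNA of 8 left ventricular samples was sequenced as paired ends after rRNA depletion, per the labels' protocols. The authors deposited raw gene counts for each day. They also deposited transcript tables with read counts and transcript lengths, made with software not given in the sources used here, and DESeq2 results with log2 fold changes and p-values, per the file headers. The submitters' processing notes name TopHat2 2.0.14 and Bowtie2 2.2.5, HTSeq, SAMtools 0.1.2, DESeq2, FastQC and build mm10, with no annotation release or strand setting, so overlapping and antisense genes cannot be told apart.

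Counts of both days were fitted together in R 4.3.3 with edgeR 4.0.16 (TMM, filterByExpr, glmQLFit with robust estimation, glmQLFTest), which tested 15508 genes and left out 8554. Each gene was tested against a spread estimated over all 4 groups of 2 mice and moderated across genes, with 4 residual degrees of freedom. The smallest count set as a floor, 3 counts, was 0.120 to 0.406 CPM. RPKM was computed from the transcript reads and lengths. The fit was tested on simulated counts. Members were found by symbol. Named genes were the 6 called genes with the most negative and the 6 with the most positive change in each contrast, the 5 most abundant, the 3 with the smallest changes, and 10 named for their function; other names were chosen after their values were seen. The members and lists were chosen with earlier results of these data known. Alternatives were DESeq2 1.42.0, limma 3.58.1 voom, other scalings and filters, a 1.5-fold threshold, 1 day at a time, transcript reads, and leaving out each library, plus leaving out both B libraries of 1 day, also from the transcript reads, and MI library B alone from those reads, added after seeing the data. Gene positions and promoter windows came from RefSeq (GRCm38.p6). No sample column was left unmapped.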

Additional observations from a re-analysis of the deposited data

Results flagged for a closer look

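The infarct effect differed between 3 days and 1 day, by the interaction term of the edgeR quasi-likelihood test with Benjamini-Hochberg adjustment over all genes, for 20 genes, all with a more positive effect at 3 days. The differences, as log2 fold change at 3 days minus that at 1 day, were 1.60 for Mrps14, 1.59 for Mrpl40, 1.57 for Mrpl27, 1.34 for Mrps18c, 1.28 for Mrps22, 1.24 for Mrpl20, 1.16 for Mrpl39, 1.12 for Mrpl48 and 1.11 for each of Mrpl13, Mrpl36 and Mrpl52. They were 1.10 for Mrpl54, 1.09 for Mrpl24, 1.06 for Mrps10, 1.03 for Mrps16, 1.02 for Mrpl21, 0.97 for Mrps11 and 0.85 for each of Mrpl33, Mrpl41 and Mrps28. The calls on Mrps14 and Mrpl40 held under every alternative tried, and each of the other 18 was lost under at least 1.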

How the results depend on the processing

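With each library left out in turn, a group of 1 is assumed to vary like the others. At 1 day 45 to 64 genes were then lower and 0 to 1 higher, and at 3 days 34 to 55 lower and 2 to 9 higher. The effect at 3 days was more positive for 2 to 26 and more negative for 0 to 4. At 3 days against 1 day after MI 6 to 22 were higher and 4 to 23 lower.

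The 8 genes higher at 3 days became 4 with DESeq2 size factors, DESeq2's test, the libraries of the day alone or transcript reads, 5 with upper quartile factors or at least a 1.5-fold change, and 13 with library size alone. The 20 more positive effects became 8 with transcript reads and 12 with both B libraries of 1 day left out. The 0 more negative effects became 1 (Mrps23) with DESeq2 size factors, DESeq2's test, upper quartile factors or a mean of at least 5 CPM, 4 with transcript reads and 2 without both B libraries. After MI the 15 lower became 9 with library size alone and 6 with no low-count filter, and the 20 higher became 11 with transcript reads. The cause was not tested. Library size alone moved the median of all genes to 0.40 at 1 day and 0.43 at 3 days, against 0.12 and 0.16, and the members' medians to -0.74 and -0.38, with 34 lower and 13 higher at 3 days. No called direction was reversed. No paired analysis was possible because the count columns carry no replicate number. With 2 mice per group, changes near 0.5 on the log2 scale were at the edge of what could be called.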
